A study of Mus musculus with 2 samples.

Results

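Pi16 fibroblasts are connective tissue cells that carry RNA of Pi16, a secreted peptidase inhibitor, and that were picked here from single-cell counts of mouse bowel and mesenteric fat. A cell belonged to the group if it held at least 5 unique molecular identifiers (UMIs, one per captured RNA molecule) summed over Dcn, Col1a2, Col3a1 and Lum, at least 1 UMI of Pi16, and none of Adamdec1, Inmt, Ptprc or Epcam. Adamdec1 and Inmt mark other gut and connective tissue fibroblasts, Ptprc encodes the leukocyte antigen CD45, and Epcam marks epithelium. The rule found 1937 cells, 1020 in the colotomy library and 917 in the sham library, among 51389 cells that passed the filters on depth and mitochondrial RNA. They made up part of the 10912 cells that reached the sum over the 4 matrix genes, called fibroblast-sum cells here, and the remaining 8975 of those served for comparison.

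The animals were C57BL/6 mice (B6/C57 in the labels) aged 8 to 12 weeks, and tissue was taken on postoperative day 14. The 2 groups were mice given a colotomy, an incision of the colon, and mice given a sham operation. Each group was 1 library on the 10x platform that mixes all cells of the bowel with those of the mesenteric adipose tissue (MAT), and the number of animals behind a library is not given in the sources used here. With 1 library per group, each difference between colotomy and sham is a difference between 2 libraries with no replicate, so there is no test of the operation and no p-value.

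Fibroblasts that express Pi16 and Dpp4 line the outer layers of vessels and fill the connective tissue sheets around organs and between fat lobules. In mouse tissues they have been described as a reserve population from which other fibroblasts, and in fat also committed preadipocytes, can arise. In injured tissue, fibroblasts lay down fibrillar collagen and cross-link it, remodel it with metalloproteases, and can acquire contractile proteins.

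The hashtags were meant to tell the 2 tissues apart, and their barcode oligos are shown because they decide whether a Pi16 fibroblast can be traced to bowel or to fat. Capitals mark the 11 of 15 bases at which the pair differ.
Hashtag 1, paired with bowel by the submitters: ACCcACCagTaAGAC
Hashtag 2, paired with MAT by the submitters: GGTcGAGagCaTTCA
Every Pi16 fibroblast carried many reads of both. The lowest hashtag 1 count in a Pi16 fibroblast was 337 UMIs in the colotomy library and 15 in the sham library, and the lowest hashtag 2 count was 66 and 82 UMIs in the same order of libraries. The log2 ratio of hashtag 1 over hashtag 2 had a median of 2.46 in colotomy Pi16 fibroblasts, with 5th and 95th percentiles of 1.19 and 3.44, against -1.22, -2.07 and -0.43 in sham Pi16 fibroblasts. The ratios of the libraries thus lay apart, and within a library a mixture of 2 components fitted to the log counts gave peaks at most 0.975 standard deviations apart. The tissue of origin of a single Pi16 fibroblast could not be read from these values, and all results below are for both tissues together. The labels name the antibodies as anti-mouse in one field and as anti-human in the protocol text.

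The colotomy library was the smaller and the shallower. It held 12002711 gene UMIs over 15547 barcodes, of which 9246 passed the filters, and the sham library held 74006762 UMIs over 44814 barcodes, of which 42143 passed. Colotomy Pi16 fibroblasts had a median of 765 UMIs and 489.5 genes, and sham Pi16 fibroblasts a median of 1529 UMIs and 865 genes. Mitochondrial RNA took a median of 5.70% of their UMIs in the colotomy library and 4.55% in the sham library. The libraries shared 190 barcodes by sequence, of which 108 passed the filters in both libraries and 1 belonged to a Pi16 fibroblast in both. Summed over all Pi16 fibroblasts of a library there were 886526 UMIs after colotomy and 1538050 after sham, which set the counting error of the values below.

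The libraries also differed in sex-linked RNA. An Xist UMI, from the RNA that coats the silenced X chromosome of female cells, was found in 233 of the 1020 colotomy Pi16 fibroblasts (22.8%) and in 1 of the 917 sham Pi16 fibroblasts (0.109%). A UMI of at least 1 of 4 Y-linked genes was found in 122 (12.0%) and 257 (28.0%). Both kinds were found in 15 colotomy Pi16 fibroblasts and in 0 sham ones, which allows a share of up to 0.327% there. Sex-linked RNA of both kinds was thus present after colotomy and Y-linked RNA almost alone after sham. For some genes and lists, values in cells with a Y-linked and no Xist UMI are given as well. Of the single genes followed there, 26 had a colotomy over sham ratio outside the counting interval found over all Pi16 fibroblasts, and 31 inside it.

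RNA of other cell types was found in Pi16 fibroblasts and differed between the libraries. Values are CPM, the UMIs of a gene or list over all gene UMIs of the summed cells, scaled to 1000000. The 6 neutrophil markers summed to 1948 CPM in colotomy Pi16 fibroblasts and 42.9 CPM in sham Pi16 fibroblasts, and to 3229 and 78.0 CPM in cells of the same libraries picked by lymphocyte markers. The 5 erythroid markers summed to 1618 and 5099 CPM, the 5 B cell markers to 239 and 912 CPM, and the 8 epithelial markers to 497 and 244 CPM, colotomy Pi16 fibroblasts first in each pair. The plasma cell markers summed to 2973 and 1843 CPM, the goblet cell markers to 814 and 432 CPM, the macrophage markers to 784 and 352 CPM, and the markers of T cells to 30.5 and 81.3 CPM. Among markers of stroma and vessels, mesothelial ones were at 182 and 132 CPM, smooth muscle ones at 241 and 183 CPM, pericyte ones at 67.7 and 32.5 CPM, lymphatic endothelial ones at 174 and 131 CPM and vascular endothelial ones at 126 and 128 CPM. The lists of natural killer or innate lymphoid cells (144 and 149 CPM), adipocytes (111 and 114), neurons (41.7 and 65.0), Adamdec1-positive fibroblasts (36.1 and 22.1), dendritic cells (31.6 and 18.2), mast cells (6.77 and 2.60) and glia (4.51 and 13.0) made up the rest. The markers of Inmt-positive fibroblasts reached 4592 and 8347 CPM and those of Pi16 fibroblasts 1487 and 1389 CPM, each sum leaving out the genes of the rule. A single abundant gene, Gsn, made up most of the Inmt-positive sum in both libraries, and its own levels are given further on. None of the neutrophil markers was at 0 in colotomy Pi16 fibroblasts and 1 was in sham ones. Their part in the differences between the libraries was not tested. In sums over cells, fewer cells that express a gene and less RNA of it per cell cannot be told apart.

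Pi16 fibroblasts made up 23.3% of the fibroblast-sum cells of the colotomy library (95% interval 22.03 to 24.6, exact Clopper-Pearson) and 14.0% of those of the sham library (13.2 to 14.9). The share of fibroblast-sum cells with a Pi16 UMI, before the 4 exclusions, was 28.2% (26.9 to 29.6) after colotomy and 30.8% (29.7 to 32.0) after sham. With all UMIs, the gap in the whole rule therefore came in with the exclusions. A Ptprc UMI removed 127 of 1236 colotomy cells with Pi16 (10.3%) and 913 of 2012 sham cells with Pi16 (45.4%), counted before the other exclusions. An Inmt UMI was found in 13 (1.05%) and 173 (8.60%) of the same cells, an Epcam UMI in 72 (5.83%) and 130 (6.46%), and an Adamdec1 UMI in 20 (1.62%) and 27 (1.34%). Without the Ptprc and Epcam conditions the shares were 27.4% after colotomy and 27.8% after sham, so with all UMIs the gap between the libraries rests on those conditions.

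**Figure D1:**
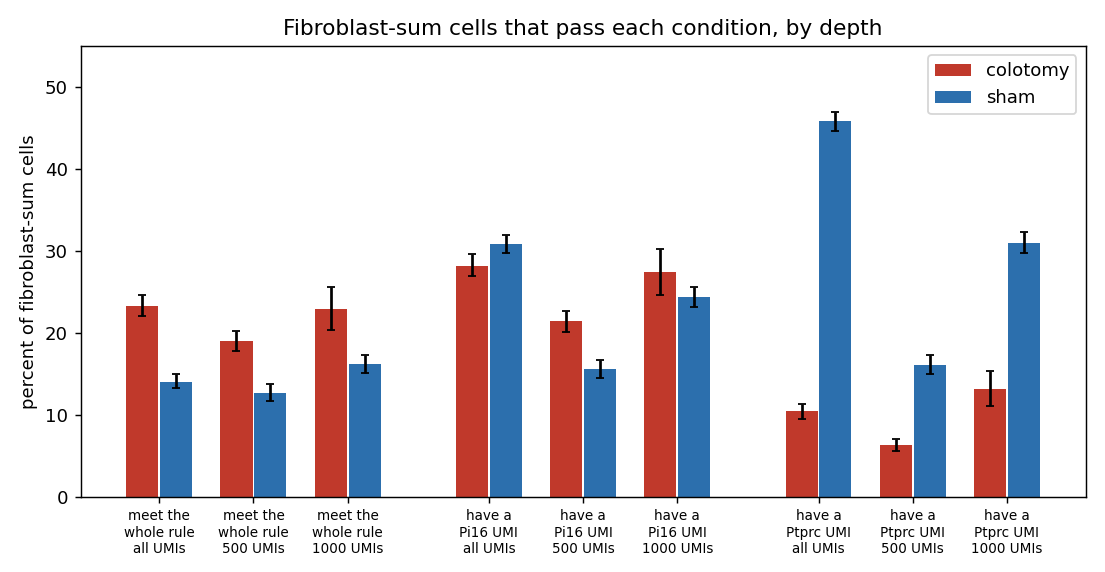
Percent of fibroblast-sum cells (y axis) that meet the whole rule, that hold a Pi16 UMI and that hold a Ptprc UMI, in the colotomy library (left bar of each pair) and the sham library (right bar), with all UMIs and after cells were thinned to 500 or 1000 UMIs before the sum was taken, with cells under 1000 UMIs left out of the last. Error bars are exact 95% Clopper-Pearson intervals for counting error. The sham library holds the larger share with a Ptprc UMI at each depth.

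At equal depth the libraries differed in Pi16 itself. With every cell thinned to 500 UMIs before the rule was applied, 21.4% of colotomy fibroblast-sum cells (20.1 to 22.7) and 15.6% of sham ones (14.5 to 16.7) held a Pi16 UMI before any exclusion, and 19.0% and 12.7% met the whole rule. Thinning to 1000 UMIs left out the shallower cells, so that 2735 of the 9246 colotomy and 29701 of the 42143 sham cells remained. Of the fibroblast-sum cells among these, 27.4% (24.7 to 30.3) after colotomy and 24.4% (23.2 to 25.6) after sham held a Pi16 UMI, and 22.9% and 16.2% met the whole rule. At both depths the share with Pi16 was the higher after colotomy, the reverse of the order with all UMIs. Shares of Pi16 fibroblasts at 1000 UMIs further on rest on the 260 colotomy and 788 sham members deep enough. At 1000 UMIs the Ptprc-positive share of cells with Pi16 was 10.2% after colotomy and 27.6% after sham. Free RNA can place single UMIs in cells that do not make a transcript. Cells picked by lymphocyte markers should lack Pi16, and here and elsewhere they were taken only below the matrix sum. Of these, 4 of 193 (2.07%) held a Pi16 UMI in the colotomy library and 219 of 18807 (1.16%) in the sham library. Their median depths were 846 and 1479 UMIs, against 748 and 1645 UMIs in fibroblast-sum cells. The shares were far below those in fibroblast-sum cells, but cells above the matrix sum had been left out, which by itself favours a low share. The part of free RNA in the Pi16 UMIs of fibroblast-sum cells was not tested.

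The threshold on Pi16 was passed by a single UMI in 609 of the 1020 colotomy Pi16 fibroblasts and in 393 of the 917 sham ones, by 2 UMIs in 221 and 228, and by 3 or more in 190 and 296. Sema3c, a guidance molecule secreted by progenitor-like fibroblasts, shows what lies on either side of that threshold. Its level after colotomy was 604 CPM in cells with 2 or more Pi16 UMIs, 322 CPM in cells with 1, and 176 CPM in cells that met the rest of the rule with 0. After sham the same levels were 564, 272 and 185 CPM. The threshold on the matrix sum was reached with exactly 5 UMIs by 25 colotomy and 15 sham Pi16 fibroblasts, and 33 and 16 cells missed it at 4 UMIs. Sema3c stood at 838 and 357 CPM in the cells at 5 UMIs and at 327 and 343 CPM in the cells at 4 UMIs, colotomy first, from at most 15 UMIs each.

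The label fits the other marker genes. The other fibroblast-sum cells used for comparison include cells that held a Pi16 UMI and failed an exclusion. Dpp4, a cell-surface peptidase, was at 129 CPM in colotomy Pi16 fibroblasts and 68.7 CPM in the other colotomy fibroblast-sum cells, and at 98.2 and 70.6 CPM in the same cells of the sham library. Cd55, a complement-regulating surface protein, was at 603 and 327 CPM after colotomy and at 508 and 236 CPM after sham, Pi16 fibroblasts first. Anxa3, a membrane-binding annexin, was at 315 and 157 CPM after colotomy and at 340 and 143 CPM after sham. Sema3c was at 440 and 186 CPM after colotomy and at 443 and 183 CPM after sham. Each of the 4 was therefore higher in Pi16 fibroblasts in both libraries, by log2 ratios of 0.48 to 1.28. In both libraries 3 of them passed 1.5-fold, while Dpp4 did so only after colotomy. Single cells hold few UMIs of the 4 markers. With every cell thinned to 500 UMIs, at least 1 of the 4 markers was seen in 44.6% of colotomy Pi16 fibroblasts (41.5 to 47.7) and 27.03% of the other colotomy fibroblast-sum cells, and in 45.1% (41.9 to 48.4) and 24.2% after sham.

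Between the libraries, over all Pi16 fibroblasts, the 4 markers stayed within 1.5-fold. The log2 ratio of colotomy over sham Pi16 fibroblasts was 0.39 for Dpp4, 0.25 for Cd55, -0.01 for Sema3c and -0.11 for Anxa3. In Pi16 fibroblasts with a Y-linked and no Xist UMI, Sema3c was at 258 CPM after colotomy and 400 CPM after sham, and in colotomy ones with Xist and no Y-linked UMI it was at 582 CPM. The level of Sema3c thus differed between the sex-linked subsets of the colotomy library by more than between the libraries. Pi16 lies on mouse chromosome 17 (mm10, chr17:29317680-29330593, plus strand) and Sema3c on chromosome 5 (chr5:17574281-17730268, plus strand), both protein-coding in GENCODE vM21.

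**Figure D2:**
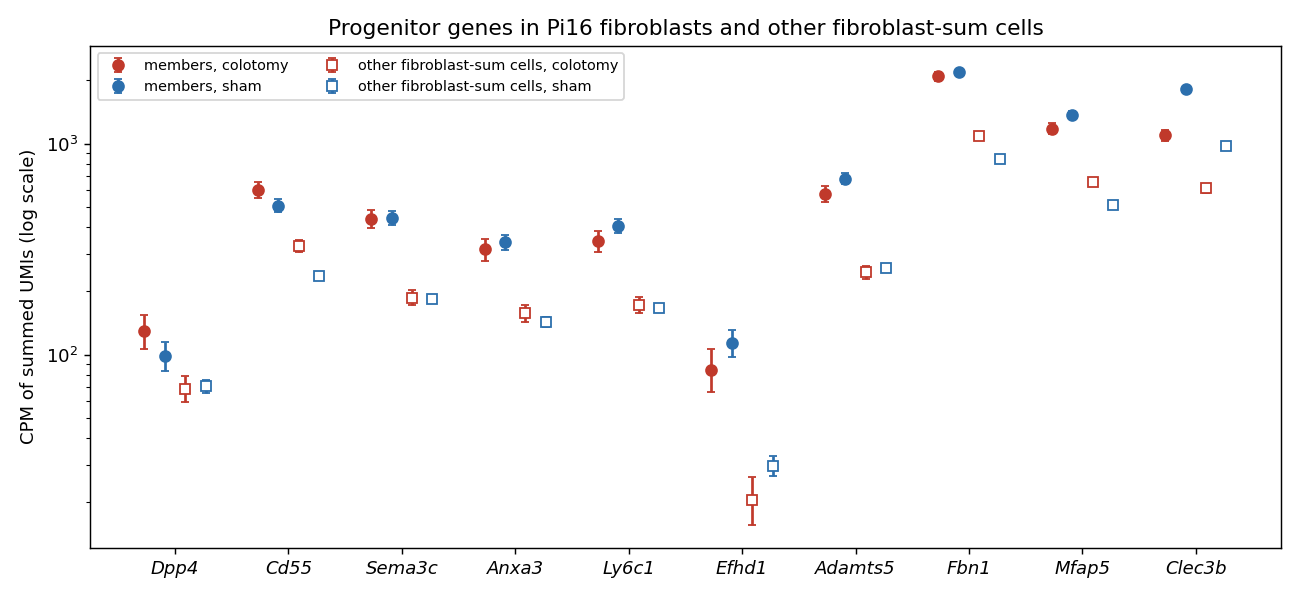
CPM of summed UMIs (log axis) of 10 progenitor-type genes in Pi16 fibroblasts (filled circles) and the other fibroblast-sum cells (open squares) of the colotomy library (red) and the sham library (blue). Bars are exact 95% Poisson intervals for counting error. The filled points lie above the open points of the same library for all 10 genes, from Dpp4 at 129 against 68.7 CPM after colotomy to Fbn1 at 2079 against 1085 CPM. The genes shown include some, such as Fbn1, that led a ranking of Pi16 fibroblasts over the others in these same cells. Their shared direction is therefore partly set by the choice of genes and is no test.

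Pi16 fibroblasts were set against the other fibroblast-sum cells of their own library. Since the members were picked from these same cells, the differences describe the group and are no test. Of 8921 genes with enough UMIs in both libraries, 151 were at least 1.5-fold higher in Pi16 fibroblasts in both (1.69%) and 362 at least 1.5-fold lower in both (4.06%). Taken alone, the colotomy library had 451 of 9075 genes higher (4.97%) and 980 lower (10.8%), and the sham library 615 of 10657 higher (5.77%) and 1389 lower (13%). The 12 highest by the weaker library were Efhd1, Limch1, Sema3c, Adamts5, Emilin2, Tmem100, Qpct, Sbsn, Pcsk6, Ackr3, Scara5 and Gfpt2. Efhd1, a mitochondrial calcium-binding protein, led with 84.6 CPM in colotomy Pi16 fibroblasts against 20.4 CPM in the other colotomy fibroblast-sum cells, and 113 against 29.6 CPM after sham. Adamts5, a protease that cleaves proteoglycans, was at 575 against 245 CPM after colotomy and 681 against 258 CPM after sham. Ackr3, a chemokine scavenger receptor, was at 233 against 106 CPM and 281 against 108 CPM.

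The group also shared genes of a wider list of fibroblast genes found across organs, of which 18 of the 26 genes counted were higher in Pi16 fibroblasts in both libraries and 0 were lower, at a median log2 ratio of 0.84 by the weaker library against 0 over all genes. Ly6c1, Cd34, Cd248, Creb5 and Uchl1 were among the 18. The 10 genes whose presence in a cell went most with membership, by the difference in the share of cells with a UMI at 1000 UMIs, were Fbn1, Clec3b, Mfap5, Fn1, Col14a1, Fstl1, Cd248, Adamts5, Nid1 and Timp3. Fbn1, the main protein of microfibrils, was found in 74.6% of colotomy Pi16 fibroblasts and 47.4% of the other colotomy fibroblast-sum cells, and in 77.9% and 43.7% after sham. Clec3b, a plasminogen-binding lectin, was found in 53.8% and 26.8% after colotomy and in 81.9% and 53.6% after sham. Most of these encode secreted or matrix proteins.

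The 12 lowest genes were Upk3b, Krt19, Retnlb, Dmbt1, Guca2a, Spink4, Klk1, Ceacam1, Lgals4, Agr2, Krt8 and Tspan1, which are genes of epithelium and, for Upk3b, of mesothelium. Krt8, a keratin, was at 205 CPM in colotomy Pi16 fibroblasts against 552 CPM in the other colotomy fibroblast-sum cells, and at 84.5 against 275 CPM after sham. The rule admits no cell with an Epcam UMI, and the comparison cells were not held to that. Against only those other cells that lacked UMIs of Pi16, Inmt, Adamdec1, Ptprc and Epcam, 109 of 8714 genes were higher and 157 lower.

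Colotomy and sham Pi16 fibroblasts were then compared over 8810 genes with at least 10 expected UMIs in each library. The level was at least 1.5-fold higher after colotomy for 1146 genes (13%) and at least 1.5-fold lower for 1296 (14.7%), with a median log2 ratio of -0.01. Requiring in addition that the exact 95% interval of the ratio lie clear of 1 left 791 and 796. In the other fibroblast-sum cells, where sums are larger, 1765 of 12246 genes were higher (14.4%) and 1929 lower (15.8%). Of 2442 genes past 1.5-fold in Pi16 fibroblasts and measured in both, 1313 were past it in the same direction in the other fibroblast-sum cells. Opposite directions were counted without mitochondrial, ribosomal, haemoglobin, immunoglobulin, sex-linked and unnamed genes. In that narrower set 14 genes were past 1.5-fold in opposite directions. The intervals were clear of 1 on both sides for 2 of these 14, Nr1h3 and Cxcl9. The cells compared come from the same libraries, so the groups share whatever sets the libraries apart.

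The 12 genes highest after colotomy, among those at least as high as in cells below the matrix sum, were Saa3, Wnt4, H19, Ctla2a, Tnc, Fmod, Igfbp3, Ltbp2, F2r, Ifitm1, Mical2 and Hp. Wnt4, a secreted Wnt ligand, was at 147 CPM in colotomy Pi16 fibroblasts (130 UMIs) and 11.7 CPM in sham Pi16 fibroblasts (18 UMIs), a ratio of 12.5 (95% interval 7.62 to 21.8). At 1000 UMIs a Wnt4 UMI was seen in 15.4% of colotomy and 1.02% of sham Pi16 fibroblasts, and in 0 of 72 and 0.161% of lymphocyte-marker cells. Wnt4 was spread over 97 cells, with 13.8% of its UMIs in the 5 richest. H19, a long noncoding RNA of growing tissues, was at 63.2 CPM against 5.20 CPM. It was found in 31 colotomy cells, with 37.5% of its UMIs in 5 of them, and stood at 39.5 CPM after colotomy and 1.95 CPM after sham without the 5 richest cells of each library. Tnc, a matrix protein of healing wounds, was at 85.7 CPM after colotomy and 10.4 CPM after sham, a ratio of 8.24 (4.76 to 15.1).

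Saa3, an acute-phase protein, had the largest ratio of this set, 21.0 (12.8 to 36.8), at 232 CPM after colotomy and 11.1 CPM after sham. That level came from few cells. A Saa3 UMI was found in 37 of 1020 colotomy Pi16 fibroblasts, 1 of them held 54 of the 206 UMIs, and the 5 richest held 68.9%. Without the 5 richest cells of each library Saa3 stood at 72.2 CPM after colotomy and 0.650 CPM after sham. It was at 347 CPM in colotomy cells with 1 Pi16 UMI and 72.8 CPM in those with 2 or more. In colotomy cells with Xist and no Y-linked UMI it was at 45.5 CPM and in those with the reverse at 36.9 CPM. With every cell thinned to 500 UMIs, Saa3 was seen in 2.55% of colotomy Pi16 fibroblasts, 5.03% of the other colotomy fibroblast-sum cells and 2.07% of colotomy lymphocyte-marker cells (0.568 to 5.22), and its level in those lymphocyte-marker cells was 176 CPM. By that share Saa3 in colotomy Pi16 fibroblasts could not be told from background RNA. Hp, another acute-phase gene, had 47.8% of its 69 UMIs in 5 cells and was seen at 500 UMIs in 2.45% of colotomy Pi16 fibroblasts and 2.59% of colotomy lymphocyte-marker cells, so the same holds for it.

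The remaining genes of this set were spread over more cells. Igfbp3, which binds insulin-like growth factors, was at 140 CPM after colotomy and 18.2 CPM after sham, and in the other fibroblast-sum cells at 186 and 72.1 CPM. Fmod, a small proteoglycan that guides collagen fibril growth, was at 86.9 and 11.1 CPM in Pi16 fibroblasts and at 101 and 32.3 CPM in the others. Ltbp2, a microfibril protein, was at 58.7 and 8.45 CPM. F2r, a thrombin receptor, was at 97.0 and 15.0 CPM, and Ifitm1, a membrane protein of the interferon-induced family, at 89.1 and 15.0 CPM. Ctla2a was at 158 and 18.9 CPM and Mical2, which acts on actin filaments, at 60.9 and 11.1 CPM. At 500 UMIs Ifitm1 was seen in 3.43% of colotomy Pi16 fibroblasts and 2.59% of colotomy lymphocyte-marker cells (0.846 to 5.94). Mical2 was seen in 2.55% and 0.518% (0.0131 to 2.85). By the shares at that depth Ifitm1 and Mical2 could not be told from background RNA. At 1000 UMIs the shares of Pi16 fibroblasts were 6.54% and 7.69%, against 0 of 72 lymphocyte-marker cells for each (up to 4.99%). All 12 genes were also higher after colotomy in the other fibroblast-sum cells, by log2 ratios of 0.90 for Ifitm1 to 4.23 for Saa3.

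The 12 genes lowest after colotomy were Zbtb16, C1rb, Bmyc, Blvrb, Arl4a, Galnt15, Vit, Smpd3, Abca8a, Stim1, Evc and Errfi1. Zbtb16, a transcription factor induced by glucocorticoids, was at 15.8 CPM in colotomy Pi16 fibroblasts (14 UMIs) and 108 CPM in sham Pi16 fibroblasts (166 UMIs), a ratio of 0.146 (0.0783 to 0.253). With every cell thinned to 500 UMIs it was seen in 8 of 1020 colotomy (0.784%) and 44 of 917 sham Pi16 fibroblasts (4.80%). Smpd3, a sphingomyelinase, was at 157 and 393 CPM, a ratio of 0.399 (0.330 to 0.481), and at 500 UMIs was seen in 7.84% of colotomy and 15.7% of sham Pi16 fibroblasts, against 1.04% and 0.431% of lymphocyte-marker cells. Vit, a matrix protein, was at 50.8 and 129 CPM. Abca8a, a lipid transporter, was at 56.4 and 140 CPM. Errfi1, an inhibitor of the EGF receptor, was at 99.3 and 233 CPM. Blvrb was at 23.7 and 70.2 CPM, but at 78.1 and 81.3 CPM in lymphocyte-marker cells. Stim1 was at 37.2 and 91.0 CPM, against 53.7 and 65.1 CPM there. At 500 UMIs after colotomy Blvrb was seen in 1.18% of Pi16 fibroblasts and 4.15% of lymphocyte-marker cells, and Stim1 in 1.57% and 3.11%. The part of background RNA in Blvrb and Stim1 was not tested. C1rb, a complement protease, was at 24.8 and 112 CPM, while its near-identical neighbour C1ra was at 174 and 79.97 CPM, so the split of reads between those copies leaves the value of C1rb uncertain. The 12 were all lower after colotomy in the other fibroblast-sum cells too, by log2 ratios of -0.41 for Evc to -2.90 for Zbtb16.

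**Figure D3:**
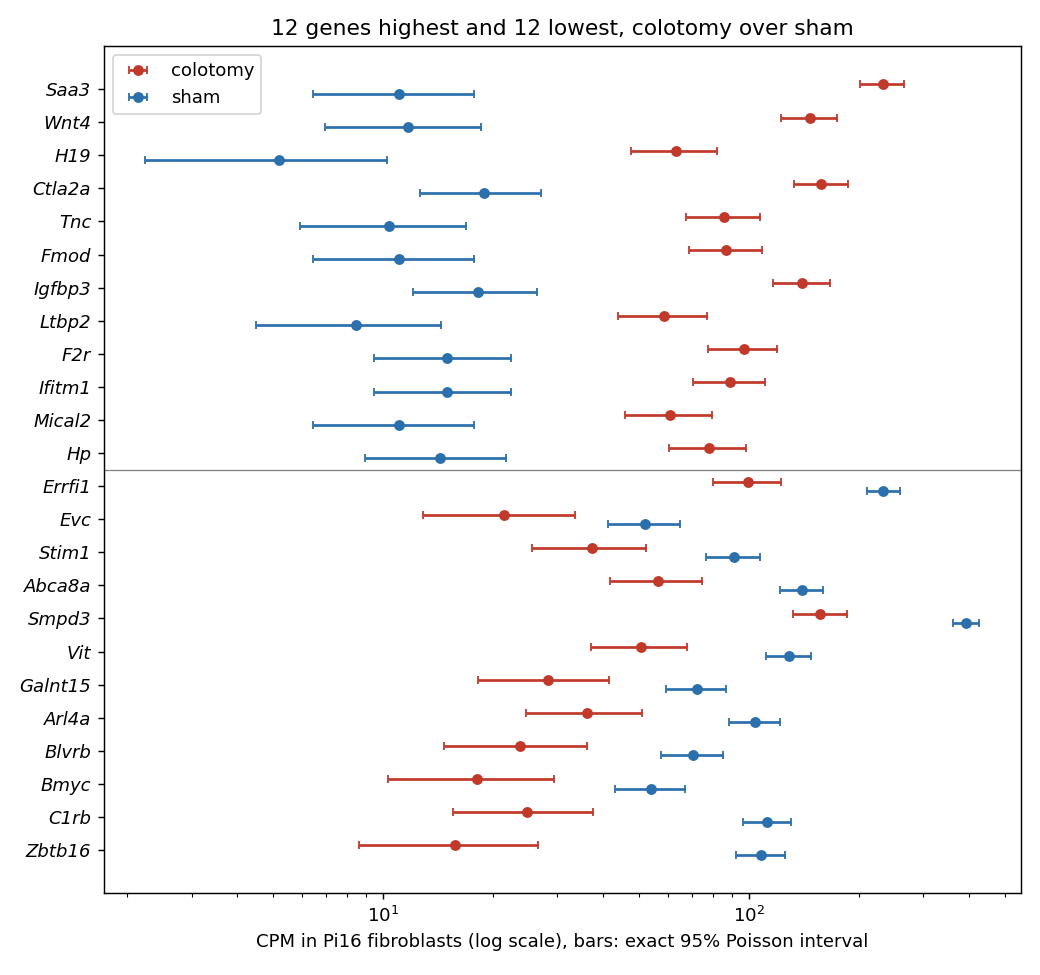
CPM (log axis) of the 12 genes highest (above the line) and the 12 lowest (below it) in colotomy over sham Pi16 fibroblasts, with the colotomy point (red) above the sham point (blue) in each row and exact 95% Poisson intervals for counting error. Saa3 leads the upper set at 232 against 11.1 CPM and Zbtb16 has the smallest ratio of the lower set at 15.8 against 108 CPM, in the bottom row.

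Among gene groups, matrix production differed in most of its genes. Of 25 genes of fibrillar collagens and collagen processing, 17 were at least 1.5-fold higher after colotomy and 1 was lower. Their median log2 ratio was 0.83. Over all genes 13% were higher and 14.7% lower, and the counts of each list below are to be set against these shares. Col1a1, which encodes a chain of type I collagen, was at 8490 CPM in colotomy Pi16 fibroblasts and 2182 CPM in sham Pi16 fibroblasts, a ratio of 3.89 (3.74 to 4.05). Col12a1, a fibril-associated collagen, was at 271 and 52.7 CPM. Col11a1, a minor fibrillar collagen, was at 36.1 CPM (32 UMIs) after colotomy and 0.650 CPM (1 UMI) after sham, a ratio of 55.5 with a counting interval of 9.27 to 2260. Its colotomy UMIs lay in 18 cells, 56.2% of them in 5, and without those 5 its level was 15.8 CPM. At 1000 UMIs a Col1a1 UMI was seen in 96.5% of colotomy and 73.0% of sham Pi16 fibroblasts, against 4.17% and 2.61% of lymphocyte-marker cells.

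The enzymes that modify and cross-link collagen went with it. Lox, the lysyl oxidase that starts cross-linking, was at 315 CPM after colotomy and 79.3 CPM after sham, a ratio of 3.97 (3.20 to 4.95). Plod2, a lysyl hydroxylase, was at 266 and 76.1 CPM, and P4ha3, a prolyl hydroxylase, at 31.6 and 6.502 CPM. Serpinh1, the collagen chaperone, was at 1704 and 887 CPM. The exception was Pcolce2, an enhancer of procollagen cleavage, at 212 and 387 CPM. In the other fibroblast-sum cells 20 of the same 25 genes were higher after colotomy and 1 lower, with a median of 1.19, and the log2 ratio of Col1a1 was 1.96 in Pi16 fibroblasts and 2.67 in the others.

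Of 22 counted genes of activated fibroblasts, 18 were higher after colotomy and 1 was lower. Their median log2 ratio was 1.83 in Pi16 fibroblasts and 2.01 in the other fibroblast-sum cells. Timp1, an inhibitor of metalloproteases, was at 352 CPM after colotomy and 68.3 CPM after sham, a ratio of 5.16 (4.12 to 6.49), and at 1000 UMIs it was seen in 26.5% and 5.33% of cells. Postn, a matrix protein of remodelling tissue, was at 1070 and 600 CPM. Cthrc1, a secreted glycoprotein of collagen-producing fibroblasts, was at 82.3 and 16.9 CPM and at 500 UMIs was seen in 4.41% and 0.654% of cells. Ccn4, a matricellular protein, was at 46.2 and 3.90 CPM. Spp1, which encodes osteopontin, had 124 UMIs after colotomy and 0 after sham, at least 71.7-fold higher against a floor of 3 UMIs over the sham cells. At 140 CPM in colotomy Pi16 fibroblasts, with 50.0% of its UMIs in 5 cells, Spp1 was below its 478 CPM in colotomy cells under the matrix sum. At 500 UMIs it was seen in 2.84% of colotomy Pi16 fibroblasts and 5.18% of colotomy lymphocyte-marker cells. By that share Spp1 could not be told from background RNA.

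The contractile and adhesive genes of that list were mixed. Acta2, the smooth muscle actin of myofibroblasts, was at 47.4 CPM after colotomy (42 UMIs) and 83.2 CPM after sham (128 UMIs). Single cells set those levels, since 1 sham cell held 47 of the 128 UMIs, and without the 5 richest cells of each library Acta2 stood at 28.2 and 22.8 CPM. With every cell thinned to 500 UMIs an Acta2 UMI was seen in 1.57% of colotomy and 1.31% of sham Pi16 fibroblasts. Fn1, fibronectin, was at 3148 and 3116 CPM in Pi16 fibroblasts, a ratio of 1.01 (0.964 to 1.06), while it was at 2302 and 1349 CPM in the other fibroblast-sum cells. Tagln, an actin-binding protein of contractile cells, was at 123 and 65.0 CPM.

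Genes that cut or protect the matrix were mostly higher. Of 25 proteases and inhibitors, 15 were higher after colotomy and 0 lower, with a median of 0.88. Adamts15 was at 97.0 and 21.5 CPM, Mmp3 at 81.2 and 19.5 CPM and Mmp14, a membrane-bound collagenase, at 675 and 218 CPM. Mmp2, a gelatinase, was at 1204 and 514 CPM. Timp2 differed little, at 3082 and 3116 CPM. Of 14 genes of elastic fibres and microfibrils, 6 were higher and 1 lower, with a median of 0.49. The elastin gene Eln was at 1983 and 886 CPM and Fbn2 at 94.8 and 32.5 CPM, while Fbn1 stood at 2079 and 2187 CPM and Ltbp4 was the lower one, at 429 and 799 CPM.

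**Figure D4:**
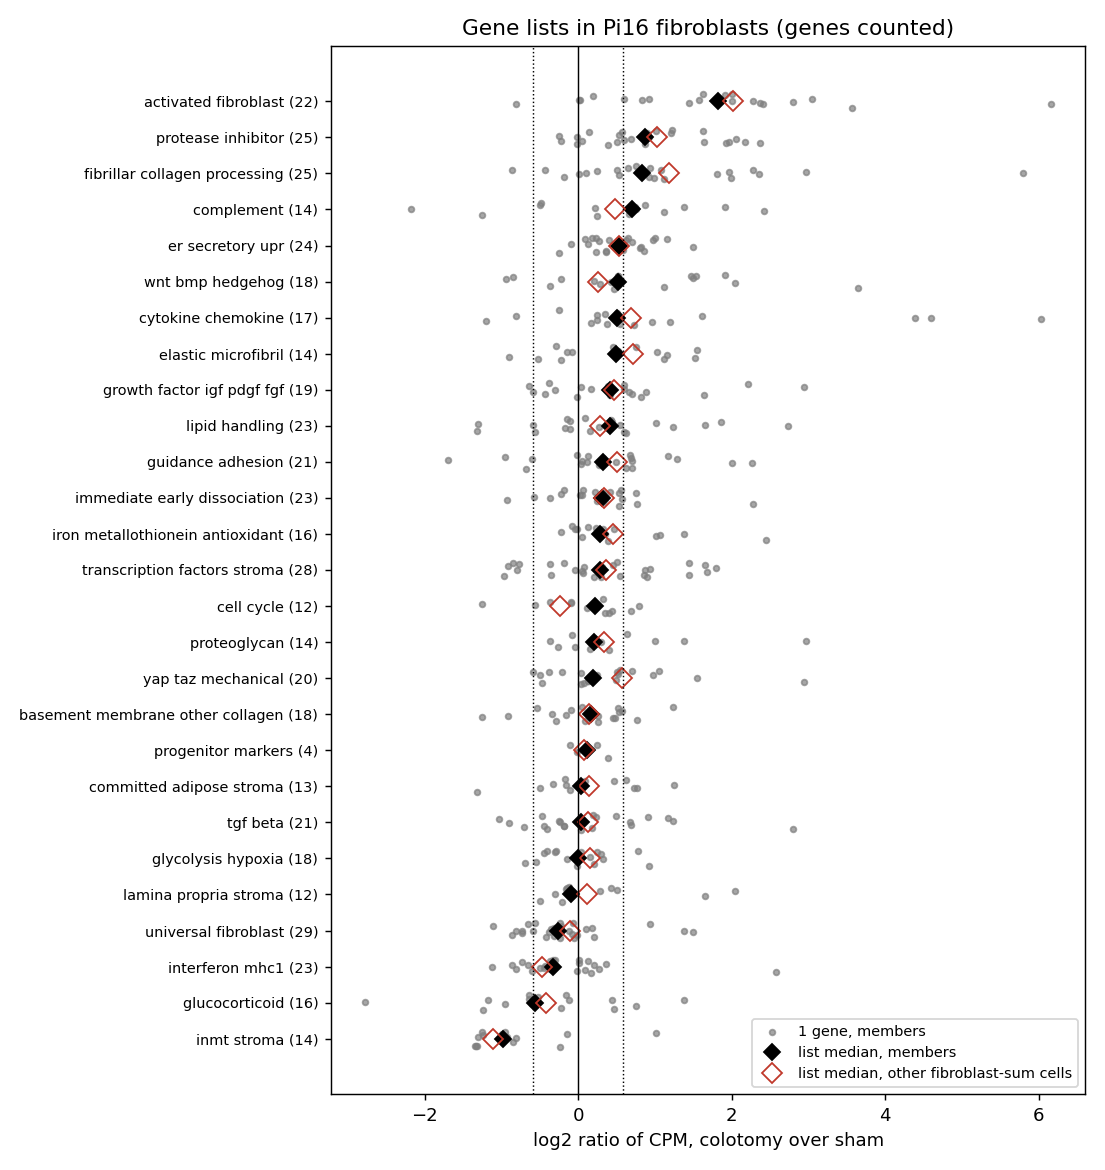
Log2 ratio of CPM, colotomy over sham, for the genes of 27 lists in Pi16 fibroblasts (grey points, 1 per gene), with the list median in Pi16 fibroblasts (filled diamonds) and in the other fibroblast-sum cells (open diamonds). Numbers in parentheses are genes counted and dotted lines mark 1.5-fold. The medians run from 1.83 for activated fibroblast genes to -0.97 for genes of Inmt-positive stroma.

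Of 29 fibroblast genes found across organs, which include markers of the progenitor state, 3 were higher and 7 were lower after colotomy, where 13% of all genes were higher and 14.7% lower. Their median log2 ratio was -0.27 in Pi16 fibroblasts and -0.11 in the other fibroblast-sum cells. Wnt2, a Wnt ligand, and Has1, a hyaluronan synthase, were among the higher, at 35.0 against 12.4 CPM and 20.3 against 7.80 CPM. Clec3b was at 1093 CPM after colotomy and 1813 CPM after sham, a ratio of 0.603 (0.560 to 0.649), and Cd248, a surface sialomucin, at 584 and 1022 CPM. Pcolce2 and Gfpt2 were lower as well, Gfpt2 at 241 and 401 CPM. In Pi16 fibroblasts with a Y-linked and no Xist UMI, Clec3b was at 849 CPM after colotomy and 1745 CPM after sham, and in colotomy ones with Xist and no Y-linked UMI at 1517 CPM.

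Genes of the Inmt-positive stroma, a fibroblast type kept out of the group by the Inmt condition, were lower as a set. Of 14, 11 were lower after colotomy and 1 higher, with a median of -0.97 in Pi16 fibroblasts and -1.11 in the other fibroblast-sum cells. Gsn, which severs actin filaments, was at 4406 CPM after colotomy and 7921 CPM after sham, a ratio of 0.556 (0.536 to 0.577). Apod, a lipid carrier, was at 6.77 and 16.9 CPM. Gpx3, a secreted glutathione peroxidase, was the gene that was higher, at 929 and 462 CPM. Of 16 genes that respond to glucocorticoids, 8 were lower and 2 higher, with a median of -0.56. Beside Zbtb16 and Errfi1, Ddit4 was at 13.5 and 30.6 CPM and Klf9 at 188 and 364 CPM, while Mt2, a metallothionein, was at 338 and 130 CPM.

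Signalling genes were divided. Of 18 counted genes of the Wnt, BMP and hedgehog pathways, 7 were higher after colotomy and 2 lower, with a median of 0.51. The Wnt-binding Sfrp1, Sfrp4 and Sfrp2 were at 495 against 131 CPM, 284 against 98.2 CPM and 552 against 255 CPM. Grem1, a BMP antagonist, was at 107 and 26.0 CPM. The hedgehog receptor and target gene Ptch1 was the lowest, at 20.3 and 39.0 CPM, with Gli1 at 9.02 and 16.3 CPM. Of 21 TGF-beta pathway genes 6 were higher and 3 lower, with a median of 0.03. Tgfb3 was at 114 and 50.7 CPM and the target gene Pmepa1 at 550 and 234 CPM, whereas Tgfb1 was at 19.2 and 39.0 CPM.

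The series title speaks of mechanosensitive fibroblasts, and 20 genes of the YAP and TAZ pathway, which reads mechanical load, could be counted in Pi16 fibroblasts. Of these 5 were higher after colotomy and 0 lower, with a median of 0.19, against 10 higher and 1 lower with a median of 0.57 in the other fibroblast-sum cells. Beside Igfbp3, Ccn2, a secreted target gene, was at 80.1 CPM after colotomy and 27.3 CPM after sham, a ratio of 2.93 (1.98 to 4.404). Ccn1, another target gene, was at 59.8 and 68.9 CPM in Pi16 fibroblasts and at 92.9 and 45.6 CPM in the others. Yap1 itself was at 36.1 and 35.1 CPM, and Piezo1, a stretch-gated channel, at 54.1 and 26.0 CPM. Whether these differences between Pi16 fibroblasts and other cells exceed what separate animals would give was not tested.

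Inflammatory genes were few and uneven. Of 17 counted cytokines, chemokines and acute-phase genes, 7 were higher and 2 lower, with a median of 0.51. The list summed to 1374 CPM after colotomy and 731 CPM after sham in Pi16 fibroblasts. In lymphocyte-marker cells it summed to 824 and 168 CPM, and in cells below the matrix sum to 953 and 236 CPM. Lcn2, an iron-binding acute-phase protein, was at 127 CPM after colotomy (113 UMIs) and 1.95 CPM after sham (3 UMIs), a ratio of 65.3 with an interval of 21.8 to 322. Cxcl2, a neutrophil attractant, was at 157 and 6.502 CPM. Both were higher in colotomy cells below the matrix sum, at 279 and 235 CPM, than in colotomy Pi16 fibroblasts, and the neutrophil markers S100a8 and S100a9 were found in 82 and 119 colotomy and 4 and 7 sham Pi16 fibroblasts. The part of RNA from other cells in the list, Lcn2 and Cxcl2 included, was not tested. Ccl11, an eosinophil attractant, was at 68.8 and 121 CPM. Over the alternatives tried, the median of this list ran from -0.41 in cells called for the MAT hashtag only to 0.77. Its direction thus depends on which cells, and with them which genes of the list, are counted.

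Complement genes split. Of 14 counted, 8 were higher and 2 lower, with a median of 0.70. Clu, a complement inhibitor and chaperone, was at 285 CPM after colotomy and 53.3 CPM after sham, and C1s1, a protease of the first complement component, at 851 and 328 CPM. C3, the central component, was at 2006 and 2803 CPM. Of 23 interferon and antigen presentation genes 1 was higher, Ifitm1, and 6 lower, with a median of -0.33. By its share of cells at 500 UMIs Ifitm1 could not be told from background RNA. The lower ones included Irf7 at 21.4 and 46.8 CPM and the immunoproteasome subunit Psmb8 at 53.0 and 96.2 CPM. Both were higher in cells below the matrix sum of the same library, Psmb8 at 108 CPM after colotomy and 224 CPM after sham, Irf7 at 31.4 and 63.1 CPM.

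Of 24 genes of the secretory pathway and its stress response, 10 were higher and 0 lower, with a median of 0.53 in both Pi16 fibroblasts and the other fibroblast-sum cells. The list summed to 7910 CPM after colotomy and 5149 CPM after sham in Pi16 fibroblasts. In lymphocyte-marker cells it summed to 5747 and 3232 CPM, and in cells below the matrix sum to 6800 and 3438 CPM. The higher sum after colotomy was thus not particular to fibroblasts. Pdia4, a disulfide isomerase, was at 396 and 140 CPM. Hspa5, the chaperone of the endoplasmic reticulum, was at 977 and 439 CPM, and within colotomy Pi16 fibroblasts at 577 CPM in those with Xist and no Y-linked UMI and 1283 CPM in those with a Y-linked and no Xist UMI. Among 19 growth factor genes 9 were higher and 2 lower, with Pdgfc at 57.5 and 12.4 CPM and Pdgfa at 48.5 and 15.6 CPM. Among 28 stromal transcription factors 9 were higher and 5 lower. Osr2 was at 31.6 and 9.10 CPM and Twist1, a regulator of mesenchymal cells, at 54.1 and 16.9 CPM, while Ebf1 was at 335 and 580 CPM.

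Among 21 guidance and adhesion genes 9 were higher and 4 lower, with a median of 0.33. Ncam1, an adhesion molecule, was at 138 and 28.6 CPM and Cdh11, a cadherin of mesenchymal cells, at 188 and 46.8 CPM, while Cdh13 was at 5.64 and 18.2 CPM. Of 23 lipid genes counted, 7 had a higher level and 3 a lower one, with Ptgs2, a prostaglandin synthase, at 56.4 and 8.45 CPM and Cebpb, a transcription factor of fat cell formation, at 275 and 75.4 CPM. The lipid list summed to 4108 and 2804 CPM in Pi16 fibroblasts, and to 2571 and 1392 CPM in lymphocyte-marker cells. Pparg, the regulator of fat cell fate, had too few UMIs to be counted, at 3.38 and 1.95 CPM. Of 13 counted genes of committed adipose stroma 4 were higher and 1 lower, with a median of 0.04, and of 12 counted genes of lamina propria stroma 2 were higher and 0 lower, with a median of -0.10. Of 18 basement membrane and other collagen genes 2 were higher (11.1%) and 2 lower, near the shares over all genes of 13% higher and 14.7% lower. Of 14 proteoglycans 4 were higher (28.6%) and 0 lower.

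Stress and growth lists moved little. Digestion of tissue can by itself switch on immediate early genes. Of the 23 counted, 3 were higher (13.0%, as over all genes) and 1 lower, with a median of 0.31. Ier3 was at 79.0 and 16.3 CPM and Egr1 at 240 and 458 CPM. Of 18 glycolysis and hypoxia genes 2 were higher (11.1%) and 1 lower, and of 16 genes of iron and antioxidant handling 4 were higher (25%) and 0 lower. Of 12 counted cell cycle genes 2 were higher and 1 lower. The proliferation marker Mki67 had 19 UMIs after colotomy and 35 after sham, 21.4 and 22.8 CPM with a ratio of 0.942 (0.509 to 1.69), so a difference in cycling was not detectable at this depth.

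The colotomy Pi16 fibroblasts could be split by sex-linked RNA, with 218 that held Xist and no Y-linked UMI and 107 that held the reverse, and 257 sham ones held a Y-linked and no Xist UMI. Col1a1 was at 6827 CPM and 8879 CPM in the 2 colotomy subsets and at 2190 CPM in the sham subset. Lox was at 253, 462 and 93.2 CPM in the same order, and Timp1 at 212, 369 and 80.8 CPM. Both colotomy subsets were above the sham subset for these genes, with the subset that held Y-linked UMIs the higher of the pair. Between the Y-linked subsets alone, over the genes with enough UMIs there, the median log2 ratio was 0.92 for the collagen list, 0.95 for the activated list and -0.39 for the cytokine list. The animals behind these cells are not known, so sex, animal and operation cannot be told apart for the cells with Xist.

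**Figure D5:**
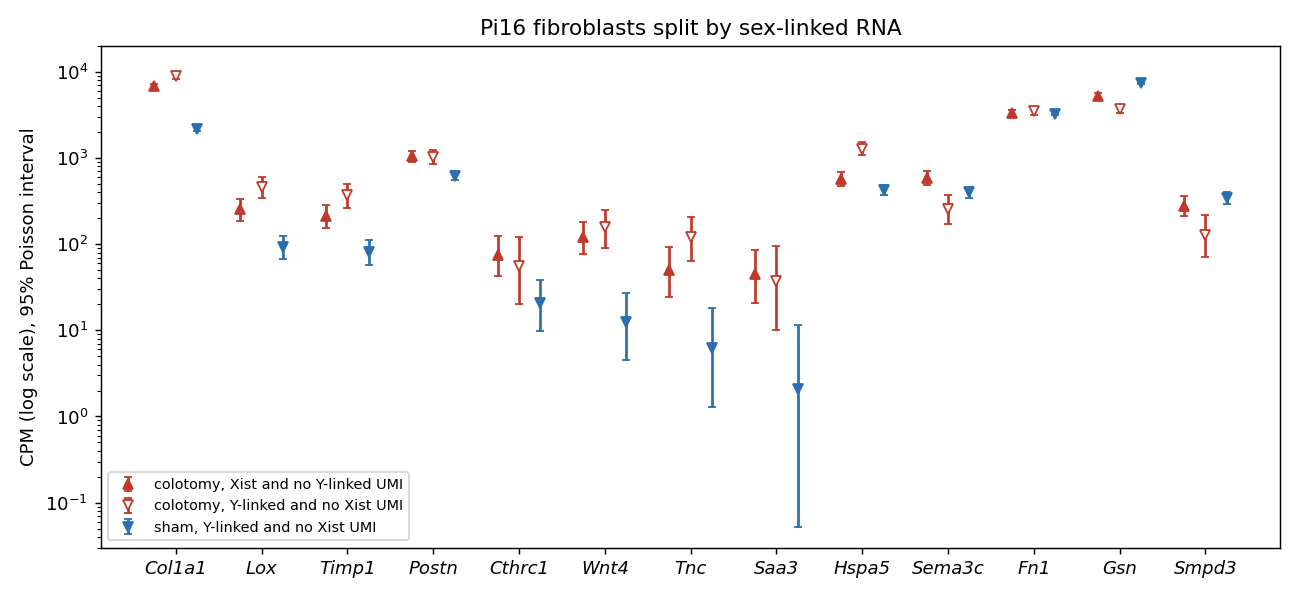
CPM (log axis) of 13 genes in colotomy Pi16 fibroblasts with Xist and no Y-linked UMI (218 cells, red upward triangles), colotomy ones with a Y-linked and no Xist UMI (107 cells, open red downward triangles) and sham ones with a Y-linked and no Xist UMI (257 cells, blue downward triangles). Bars are exact 95% Poisson intervals for counting error. Col1a1, Lox, Timp1, Wnt4 and Tnc lie above the sham subset in both colotomy subsets, while Fn1 is level and Sema3c lies on either side.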

How the data were processed

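The deposited matrices hold UMI counts per gene and hashtag and barcode, raw and not normalized, made with Cell Ranger 6.0.0 per the file headers, and the submitters' processing notes also list mm10, STAR 2.5.1b, Seurat and Space Ranger with no role. Cell-calling settings are not given in the sources used here. Each library is 1 sample per group, named from the labels.

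Barcodes entered with 500 or more gene UMIs from 300 or more genes and a mitochondrial share below 20%, and the rule was applied to their counts. No doublet caller was run. The rule drops cells with Ptprc or Epcam, and an alternative drops cells with both hashtags. Counts were summed over the cells of a group and scaled to CPM. Intervals are exact at 95% (Poisson, Clopper-Pearson, conditional binomial, scipy 1.17.1) and cover counting error only, as do floors of 3 counts. A gene was compared with at least 10 expected UMIs in each group at equal CPM and called at 1.5-fold. Computation used Python 3.11.15, numpy 2.4.6, pandas 2.3.3, scikit-learn 1.9.0 (a mixture of 2 components per hashtag) and matplotlib 3.10.9. The computation of both was checked on simulated counts.

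Named genes are the 12 largest and 12 smallest ratios with at least 50 UMIs and 50 CPM in the higher library, a CPM there not below that of kept cells under the matrix sum, and no rule, mitochondrial, ribosomal, haemoglobin, immunoglobulin, sex-linked or unnamed genes. Against other fibroblast-sum cells they are the 12 and 12 by the weaker library with at least 50 CPM. From each list the genes with the largest ratios are named, and further genes were named for their known roles after their values were seen. The members, the 27 gene lists and the 22 cell type lists were chosen with earlier results of these data known. Alternatives covered filters, the rule, depth, scaling, hashtags and sex-linked RNA.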

Additional observations from a re-analysis of the deposited data

Results flagged for a closer look

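Nr1h3, which encodes the sterol receptor LXR alpha, had opposite log2 ratios of colotomy over sham in the 2 kinds of cells, 0.93 in Pi16 fibroblasts and -0.59 in the other fibroblast-sum cells. It was at 38.4 CPM in colotomy and 20.2 CPM in sham Pi16 fibroblasts, and at 16.7 and 25.1 CPM in the others. Cxcl9, an interferon-induced chemokine, had log2 ratios of -1.21 in Pi16 fibroblasts and 0.94 in the others. It had 10 UMIs in colotomy and 40 in sham Pi16 fibroblasts, of which 1 sham cell held 22. These UMIs lay in 7 cells of each library. Without the 5 richest cells of each library Cxcl9 stood at 2.26 CPM after colotomy and 1.30 CPM after sham. Its lower level in colotomy Pi16 fibroblasts therefore rested on those few cells. The difference between the 2 kinds of cells was not tested for either gene, and they were singled out because their counting intervals lay clear of 1 on both sides among 14 genes with opposite directions.

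An Xist UMI was found in 22.8% of colotomy Pi16 fibroblasts, against 0.109% of sham ones. It was singled out because Xist was left out of the named genes and stood above its level in the sham library.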

How the results depend on the processing

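No paired analysis was possible because each group is 1 library. The counts of genes follow how many UMIs and cells enter, and each pair below gives genes higher and lower. Colotomy over sham in Pi16 fibroblasts, 1146 and 1296 of 8810 genes became 700 and 894 of 5303 in cells with at least 1000 UMIs and 500 genes, 676 and 862 of 5400 with at least 2 Pi16 UMIs, 290 and 308 of 2793 with at least 50 expected UMIs, 2313 and 2405 of 12772 with no filter beyond 1 UMI, and 406 and 469 at 2-fold. They were 791 and 796 with an interval clear of 1, and 762 and 510 of 4673 where the higher level was not below that of cells under the matrix sum. In cells called for the bowel hashtag only they were 229 and 239 of 970, from 87 colotomy and 47 sham Pi16 fibroblasts. For the MAT hashtag only they were 416 and 396 of 2272, from 153 and 89. They were 225 and 336 of 1613 in cells with a Y-linked and no Xist UMI, and 532 and 668 of 3650 after thinning to 1000 UMIs. Far fewer genes entered in these settings, so the counts are to be read against those totals. Pi16 fibroblasts over the others in both libraries, 151 and 362 of 8921 genes became 138 and 193 of 5398 at 1000 UMIs. They were 157 and 197 of 5508 with 2 Pi16 UMIs, and 123 and 227 of 8270 with a matrix sum of at least 10. The bowel hashtag gave 29 and 23 of 815, the MAT hashtag 78 and 67 of 1870, and Y-linked UMIs 70 and 42 of 1641. Thinning to 1000, which leaves out shallower cells, gave 83 and 74 of 3737. With 50 expected UMIs they were 73 and 57 of 2736, and with no filter 456 and 972 of 13978. At 2-fold they were 31 and 136, and with a clear interval 140 and 209, both of 8921. They were 151 and 42 of 3654 where the higher level was not below that of cells under the matrix sum. Against other cells without UMIs of the excluded genes they were 109 and 157 of 8714. The cause of these shifts beyond fewer cells, UMIs or genes was not tested. The share of Pi16 fibroblasts, 23.3% after colotomy and 14.0% after sham, was 9.38% and 8.03% with 2 Pi16 UMIs, 20% and 12.1% with the bowel hashtag, 22.9% and 12.2% with the MAT hashtag, 22.6% and 13.0% with Y-linked UMIs, and 22.9% and 16.2% after thinning to 1000. Alternatives chosen after seeing the data gave shares of 27.4% and 27.8% without the Ptprc and Epcam conditions. Those conditions left out gave 1298 and 1600 of 9612, then 129 and 164 of 9672 genes. Thinning to 500 UMIs gave 19.0% and 12.7%, 670 and 618 of 4050, then 71 and 75 of 4033 genes. Colotomy cells with Xist and no Y-linked UMI against all sham Pi16 fibroblasts gave 352 and 518 of 3123 genes. The sign turned for Igfbp5, a log2 ratio of -0.59 that was 0.052 in the Xist comparison, and for Top2a, 0.69 that was -0.50 without the Ptprc and Epcam conditions. Each list median was taken over the genes of the list with enough UMIs under that alternative, so the genes change along with the cells. Of the 27 list medians, 15 changed sign under at least 1 alternative. Among these, the medians ran from -0.41 (MAT hashtag) to 0.77 for cytokines, -0.12 (thinned to 1000) to 1.16 for guidance and adhesion, -0.25 (MAT) to 0.76 (bowel) for TGF-beta, -0.97 (bowel) to 0.64 (MAT) for glycolysis, -0.41 to 0.07 (MAT) for interferon genes, -0.03 (bowel) to 0.35 for immediate early genes, -0.19 to 0.87 (bowel) for proteoglycans and -0.03 to 0.43 for YAP and TAZ genes. The other 12 kept their sign, including collagens at 0.68 to 1.17, activated genes at 0.95 to 2.14 and the Inmt list at -1.44 to -0.17 (bowel).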
